A study of Rattus norvegicus with 4 samples.

Results

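Sox factors are transcription factors named for the DNA-binding HMG box that they share with the testis-determining factor Sry, and a set of them other than Sox10 was followed here in rat oligodendroglial cells that overexpress Phf8. The set was given as 9 gene names, namely Sox2 of the SoxB group, Sox4, Sox11 and Sox12 of the SoxC group, Sox5, Sox6 and Sox13 of the SoxD group, and Sox8 and Sox9 of the SoxE group. Rows of that name were looked up in a table of 14410 genes, and 8 of the 9 were used; Sox4 was not analysed here. All 8 passed the filter on low values and were among the 14368 genes tested.

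RNA was sequenced from the CG4 line, rat glial progenitors that become oligodendrocyte-like once growth factors are withdrawn. In the Phf8oe group (2 libraries) the cells carried a retrovirus in which the CAG promoter, a strong promoter active in most cell types, drives Phf8 and, through an IRES, GFP. In the ctrl group (2 libraries) they carried the same kind of virus with GFP and no Phf8. Cells of both groups were otherwise wild type, were sorted for GFP 2 days after transduction, were expanded as a sorted pool, and were seeded again and held in SATO medium, which starts differentiation, for 3 days. Phf8 is a histone lysine demethylase that removes repressive methyl marks and is recruited to active promoters. Setting Phf8oe against ctrl asks which Sox transcripts differ when Phf8 is raised in differentiating cells. All libraries come from 1 cell line, and the labels call them biological replicates without saying whether they came from separate transductions, so the p-values measure the spread between these libraries only.

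Sox proteins bend DNA by binding in its minor groove, and members of a group resemble each other in the HMG box and in the rest of the protein. In the oligodendrocyte lineage the SoxE proteins drive the programme: in the mouse Sox9 is needed for progenitors to be specified, Sox10 for the myelin genes to be switched on, and Sox8 acts beside Sox10 in differentiation and in keeping up myelin. SoxD proteins carry no activation domain of their own, and in the mouse spinal cord Sox5 and Sox6 hold progenitors back from early differentiation. SoxC proteins are activators of progenitor and young neuronal genes, and Sox2 keeps neural precursors in an undifferentiated state.

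The deposited values are counts that had been divided by a factor per library and rounded, here called normalized counts. They summed to between 40260658 and 41149255 in the Phf8oe libraries and between 39945215 and 40336248 in the ctrl libraries, and from the spacing of the whole numbers about 43100000 and 28400000 reads were estimated for Phf8oe replicates 1 and 2 and 47800000 and 39300000 for ctrl replicates 1 and 2. The transduced gene, Phf8, had 5650 and 10796 normalized counts in the Phf8oe libraries, against 2026 and 2205 in the ctrl libraries. Both Phf8oe libraries lay above both ctrl libraries, but they differed widely from each other and the change of 3.69-fold did not pass the threshold (limma adjusted p = 0.0631). It passed without robust variance moderation (0.0194) and without Phf8oe replicate 1 or 2 (2.98e-10 and 1.24e-07), when the spread comes from the ctrl pair alone. The markers of the progenitor and of the mature oligodendrocyte were present, with Olig2 at 22151 and 18194 in Phf8oe and 15146 and 16100 in ctrl and Mbp at 340486 and 308875 in Phf8oe and 184442 and 173338 in ctrl. The summed level of 9 mature markers was 609514 and 563759 in Phf8oe, against 374032 and 363655 in ctrl. The summed level of 7 progenitor markers was 101336 and 87756 in Phf8oe, against 110962 and 110956 in ctrl. In the mature list 4 genes rose past the threshold, and in the progenitor list 1 fell past it. Neither list moved as a whole. Mbp made up the largest part of the mature sum, while Cldn11, Opalin and Aspa had log2 fold changes of -0.01, -0.011 and 0.022. Of the progenitor markers Pdgfra, Cspg4, Ptprz1 and Vcan had -0.857, -0.812, -0.475 and -0.389, but Olig1, Olig2 and Gpr17 had 0.228, 0.362 and 0.382. Of 9 astrocyte markers 2 rose (Aldh1l1 and Slc1a3) and 2 fell (Gfap and Clu). Their sum was 99570 and 99256 in Phf8oe, against 156657 and 173265 in ctrl, and Gfap, the astrocyte filament protein, had 10834 and 19613 in Phf8oe, against 79141 and 80736 in ctrl. Without Gfap, left out after its values were seen, the other 8 summed to 88736 and 79643 in Phf8oe and 77516 and 92529 in ctrl, which overlap. Of 9 neuronal markers 1 fell, of 6 Schwann cell and neural crest markers 2 fell, and of 2 fibroblast markers 1 rose and 1 fell; their sums lay between 19138 and 20323, 4968 and 5809, and 232 and 300 in Phf8oe, against 27693 and 31847, 5105 and 6432, and 485 and 498 in ctrl. Of 3 microglial markers none was past the threshold, and their sum lay between 204 and 273 in Phf8oe and between 197 and 307 in ctrl. The part of these markers in the Sox values below was not tested, and in bulk RNA a change in the number of cells of a type and a change in RNA per cell cannot be told apart.

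Of the 8 Sox transcripts, 3 differed between Phf8oe and ctrl past a Benjamini-Hochberg adjusted p of 0.05 over all tested genes in limma, against 7.64% of all genes. Sox6 fell 1.56-fold and Sox11 fell 1.48-fold in Phf8oe, while Sox13 rose 1.47-fold. Calls of lower genes made up 4.65% and calls of higher genes 2.99% of all genes tested (668 and 430 genes; 598 and 614 with upper quartile scaling). In 6 of the 8 the Phf8oe libraries did not overlap the ctrl libraries, 4 lying lower (Sox11, Sox5, Sox6 and Sox8) and 2 higher (Sox12 and Sox13). With 2 libraries a group such separation is common: it was found in 57.6% of all genes, in 28.7% on the lower and 28.9% on the higher side. The median absolute log2 fold change was 0.43 over the 8 Sox genes and 0.22 over all genes tested, and the signed medians were -0.21 and 0.003. None of the Sox genes changed as much as 2-fold, a size reached by 325 of the 1098 called genes. All 3 Sox calls were lost without ctrl replicate 1 (adjusted p between 0.146 and 0.231) and without ctrl replicate 2 (between 0.0912 and 0.197), when only the Phf8oe pair is left to estimate the spread. They were also lost when limma was run without a trend in the variance (adjusted p between 0.111 and 0.164), a setting under which 0 of all genes passed and 3133 had an unadjusted p under 0.05. Over the 4 fits with 1 library left out the log2 fold change stayed between -0.70 and -0.59 for Sox6, between -0.58 and -0.56 for Sox11 and between 0.43 and 0.68 for Sox13.

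**Figure D1:**
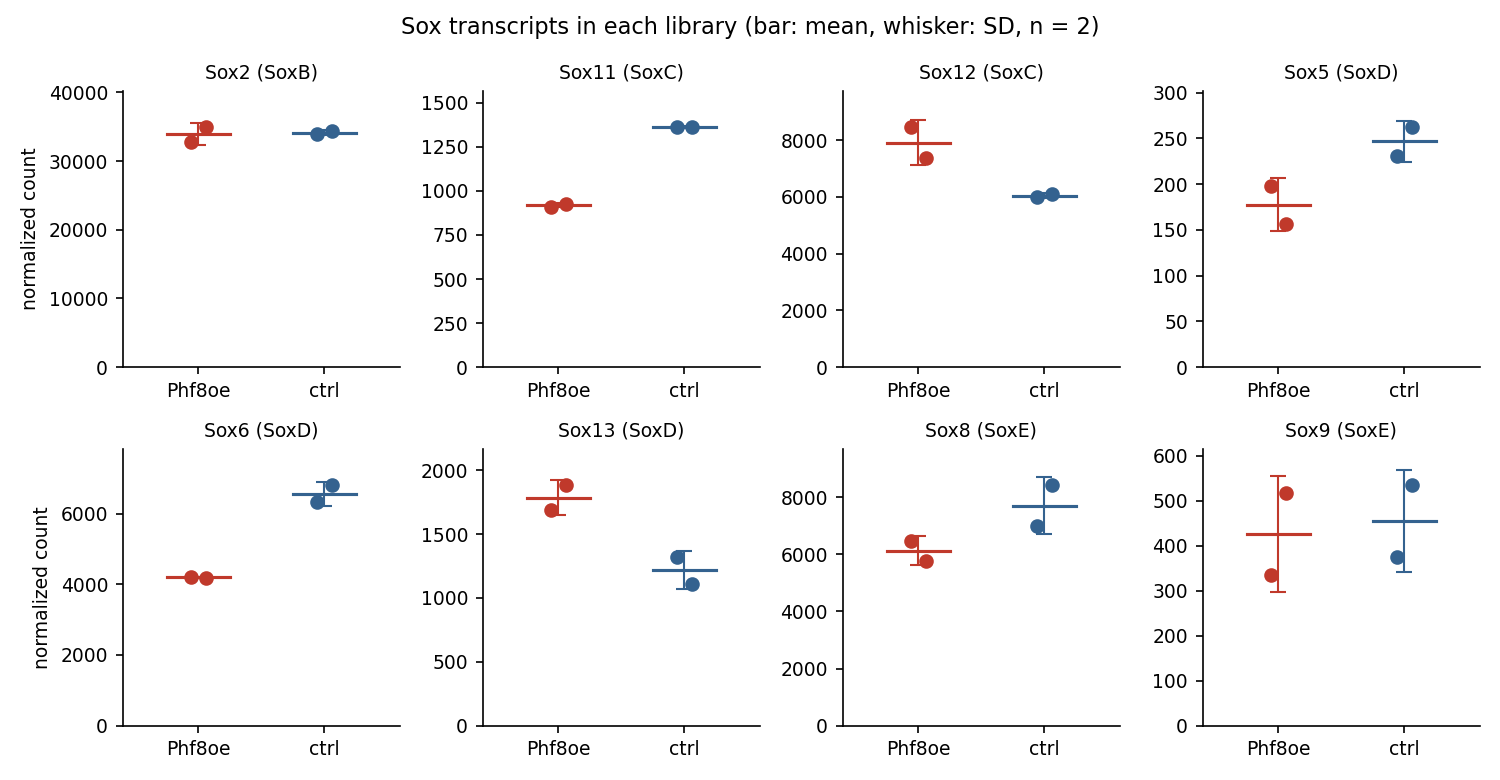
Normalized counts (y axis, from 0) of 8 Sox genes in each of the 2 Phf8oe and 2 ctrl libraries; points are libraries, bars the mean and whiskers the SD. Sox11 and Sox6 lie lower and Sox13 higher in both Phf8oe libraries, while the groups overlap for Sox2 and Sox9.

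**Figure D2:**
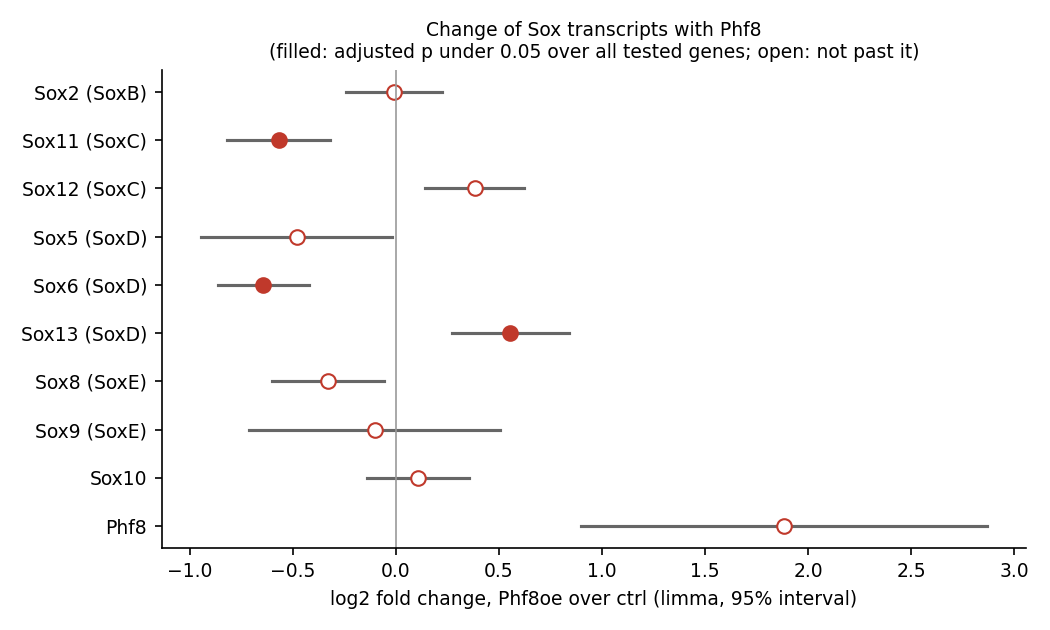
Log2 fold change of Phf8oe over ctrl (x axis) with its 95% interval from limma for the 8 Sox genes, and for Sox10 and Phf8; filled points passed an adjusted p of 0.05. Within the SoxD group Sox6 stands at -0.64 and Sox13 at 0.56.

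For the 3 genes past the threshold, the bases just before the annotated start are shown with their CpG content. CpG content is a feature of promoters at which Phf8 is known to reside. Whether it bears on the direction of change was not tested, and binding of Phf8 was not measured. The sequences are the 250 bases before the start in RefSeq's annotation of GRCr8, read 5′ to 3′ on the strand of the gene, with each CG pair in capitals. Genes such as Sox6 have several starts, of which the table holds 1, and the start used by these cells was not measured. The windows are chr1:179665372-179665621 for Sox6, chr6:49738795-49739044 for Sox11 and chr13:47427573-47427822 for Sox13, all on the minus strand.
Sox6: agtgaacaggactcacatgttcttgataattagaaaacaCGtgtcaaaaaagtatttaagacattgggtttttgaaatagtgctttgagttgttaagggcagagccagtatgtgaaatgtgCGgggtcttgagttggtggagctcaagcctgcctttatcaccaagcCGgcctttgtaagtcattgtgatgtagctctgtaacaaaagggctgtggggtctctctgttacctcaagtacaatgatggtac
Sox11: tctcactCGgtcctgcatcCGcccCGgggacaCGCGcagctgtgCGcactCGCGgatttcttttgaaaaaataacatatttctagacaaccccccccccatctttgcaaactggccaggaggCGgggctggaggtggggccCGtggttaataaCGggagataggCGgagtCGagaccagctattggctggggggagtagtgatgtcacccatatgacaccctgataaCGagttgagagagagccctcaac
Sox13: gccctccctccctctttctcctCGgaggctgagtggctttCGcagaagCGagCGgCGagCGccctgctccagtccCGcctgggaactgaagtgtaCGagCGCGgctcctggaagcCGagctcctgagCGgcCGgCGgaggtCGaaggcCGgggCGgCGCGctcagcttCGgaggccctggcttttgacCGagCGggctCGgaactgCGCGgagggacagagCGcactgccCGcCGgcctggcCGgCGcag

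The Sox6 window held 3 CG pairs and 42.8% G and C, the Sox11 window 14 CG pairs and 56.8%, and the Sox13 window 30 CG pairs and 72%. Over 33469 RefSeq windows of that length the median was 5 CG pairs and 51.2% G and C, and 28.6%, 72.4% and 94.7% of the windows held fewer CG pairs than those of Sox6, Sox11 and Sox13. Of the 2 genes that fell, Sox6 lay under the median number of CG pairs and Sox11 above it. On either strand, the GC box GGGCGG was found once in the Sox11 and once in the Sox13 window and not in that of Sox6 (30.5% of all windows hold it). The CCAAT box CCAAT was found once in the Sox6 and once in the Sox11 window (34% of all windows). The Sox core ACAAAG was found once in the Sox6 window (16.3% of all windows), the core AACAAT (10.3%) and the TATA box TATAAA (12.9%) in none of the 3. Windows for Sox2 and Sox12 were also at hand: that of Sox2 held 23 CG pairs, and the annotated start of Sox12 is its start codon, so its window was left out. These letters describe the sequence and do not show a factor bound there.

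The SoxD group held both a gene that fell and a gene that rose. Sox6, the SoxD gene best known for restraining oligodendrocyte differentiation in the mouse, had 4209 and 4191 normalized counts in the Phf8oe libraries, against 6321 and 6807 in the ctrl libraries. The Phf8oe libraries were nearly equal and both lay well under the ctrl libraries. The log2 fold change was -0.64 (SE 0.1, 95% interval -0.86 to -0.42), with a limma adjusted p of 0.00824, and the gene ranked 172 by p among all genes. Sox13, the remaining SoxD gene, which complements Sox5 and Sox6 in the mouse spinal cord, had 1687 and 1883 normalized counts in Phf8oe, against 1322 and 1112 in ctrl. Both Phf8oe libraries were above both ctrl libraries. Its log2 fold change was 0.56 (SE 0.13, 95% interval 0.27 to 0.84) with a limma adjusted p of 0.0328, and it was 0.0554 without robust variance moderation. Sox5, which in the mouse spinal cord acts with Sox6, rested on the fewest reads of the 8, with 198 and 157 normalized counts in Phf8oe, against 231 and 263 in ctrl. The groups did not overlap, but the log2 fold change of -0.48 (SE 0.21) did not pass (limma adjusted p = 0.176). About 111 reads stood behind the lowest Sox5 value, which alone gives a counting error of 9.49%.

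Ratios of paralogs within a library do not depend on how libraries are scaled. The log2 ratio of Sox13 over Sox6 was -1.32 and -1.15 in the Phf8oe libraries, against -2.26 and -2.61 in the ctrl libraries, so the ratio was 2.3-fold higher in Phf8oe. That of Sox13 over Sox5 was 3.09 and 3.58 in Phf8oe, against 2.52 and 2.08 in ctrl, or 2.06-fold higher. These ratios compare a pair of genes between groups and are not relative levels, since transcript lengths were not taken into account. The ratio of Sox5 over Sox6 overlapped between the groups, at -4.41 and -4.74 in Phf8oe and -4.77 and -4.69 in ctrl. Of 7 paralog ratios examined, 4 did not overlap between the groups, each with an exact two-sided permutation p of 0.333 (0.583 adjusted over the 7), the smallest p that 2 libraries against 2 allow. A difference in any ratio is thus a description of these libraries. Separation of those 4 ratios was fixed by the single genes. Sox13, Sox12 and Sox10 lay higher in both Phf8oe libraries, and Sox6, Sox5, Sox11 and Sox8 lay lower. The ratios therefore add no evidence beyond the values of the genes themselves.

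In the SoxC group Sox11 fell and Sox12 did not pass. Sox11, an activator found in neural progenitors and young neurons, had 911 and 927 normalized counts in the Phf8oe libraries, against 1360 and 1365 in the ctrl libraries. The replicates of each group were close together, with a gap in log2 of 0.03 in Phf8oe and 0.01 in ctrl, compared with medians over all genes of 0.17 and 0.14. About 655 reads stood behind the lowest Sox11 value, which alone gives a counting error of 3.91%. Gaps this small are thus no measure of how reproducible the gene is. The log2 fold change was -0.57 (SE 0.11, 95% interval -0.82 to -0.32), with a limma adjusted p of 0.0204. Sox12, a weaker activator of the SoxC group, had 8481 and 7356 normalized counts in Phf8oe, against 5995 and 6108 in ctrl. Both Phf8oe libraries lay above both ctrl libraries. Its log2 fold change of 0.38 (SE 0.11, 95% interval 0.14 to 0.62) missed the threshold in limma (adjusted p = 0.0585). It was 0.43 and passed with upper quartile scaling (adjusted p = 0.0414), and it was 0.49 and passed without Phf8oe replicate 2 (adjusted p = 0.00854), a fit whose spread comes from the close ctrl pair alone. The log2 ratio of Sox12 over Sox11 was 3.22 and 2.99 in the Phf8oe libraries, against 2.14 and 2.16 in the ctrl libraries, a 1.94-fold higher ratio in Phf8oe.

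**Figure D3:**
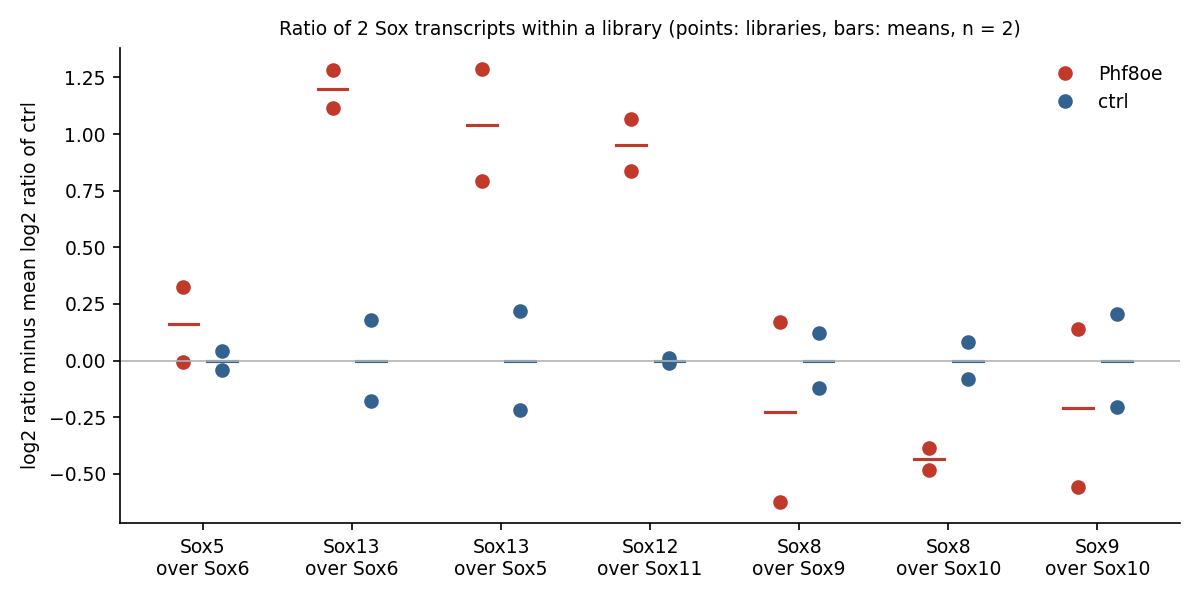
Log2 ratio of a pair of Sox transcripts within each library, minus the mean log2 ratio of the ctrl libraries (y axis); points are libraries and bars group means (n = 2). The ratios of Sox13 over Sox6, Sox13 over Sox5 and Sox12 over Sox11 lie higher and that of Sox8 over Sox10 lower in both Phf8oe libraries; the other 3 overlap.

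None of the SoxE genes passed the test. Sox8, which supports Sox10 in the mature oligodendrocyte, had 6477 and 5761 normalized counts in the Phf8oe libraries, against 6988 and 8418 in the ctrl libraries. Both Phf8oe libraries were lower than both ctrl libraries, by a log2 fold change of -0.33 (SE 0.12, 95% interval -0.6 to -0.06, limma adjusted p = 0.123). Without Phf8oe replicate 1, with the spread again taken from the ctrl pair, it was -0.41 and passed (adjusted p = 0.0483), and over the 4 fits with 1 library left out it lay between -0.46 and -0.19. Sox9, the SoxE gene of early progenitors and of astrocytes, had 336 and 518 normalized counts in Phf8oe, against 375 and 535 in ctrl. The groups overlapped, and the replicates differed by 0.62 in log2 in Phf8oe and by 0.51 in ctrl, the widest gaps of the 8 Sox genes. The log2 fold change was -0.1 (SE 0.26), and the 95% interval of the fold, 0.611 to 1.42, does not exclude a fall as large as that of Sox6. Sox10, the SoxE gene left out of the set, had 70474 and 67048 normalized counts in Phf8oe, against 61514 and 66105 in ctrl (log2 fold change 0.11, limma adjusted p = 0.57). Relative to Sox10, Sox8 was lower in both Phf8oe libraries: the log2 ratio of Sox8 over Sox10 was -3.44 and -3.54 in Phf8oe, against -3.14 and -2.97 in ctrl. The ratios of Sox8 over Sox9 and of Sox9 over Sox10 overlapped between the groups.

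Sox2, the SoxB gene of neural stem cells that progenitors of oligodendrocytes also express, had 32854 and 35027 normalized counts in the Phf8oe libraries, against 33875 and 34397 in the ctrl libraries. The ctrl values lay between the Phf8oe values. The log2 fold change was -0.01 (SE 0.1, limma adjusted p = 0.967), and the 95% interval of the fold ran from 0.845 to 1.17, so changes as large as those of Sox6, Sox11 or Sox13 lay outside it. In GRCr8 Sox2 lies within 1 annotated long non-coding gene, Sox6 overlaps 1 annotated gene and Sox5 overlaps 6. None of these was found by symbol among the tested genes. As no source used here states the strand setting of the counting, reads of these RNAs may be included in the values of Sox2, Sox6 and Sox5. Sox21, another SoxB gene and no member of the set, had 463 and 581 normalized counts in Phf8oe, against 731 and 509 in ctrl, and did not pass (log2 fold change -0.23, limma adjusted p = 0.507). Of the 14368 tested genes, 12088 could be placed by symbol in that annotation, and none of these overlapped any of the 8 Sox genes. The tested genes that could not be placed were not seen in this search. Of the 16 nearest placed neighbours, 1 on each side of each gene, 1 passed, a share near the 7.64% of all genes. This was Slc39a11, beside Sox9, which rose, with means of 1617 in Phf8oe and 1105 in ctrl (log2 fold change 0.54, limma adjusted p = 0.0312). The neighbours of Sox6, Insc and Plekha7, had log2 fold changes of 0.14 and 0.08 and did not pass.

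**Figure D4:**
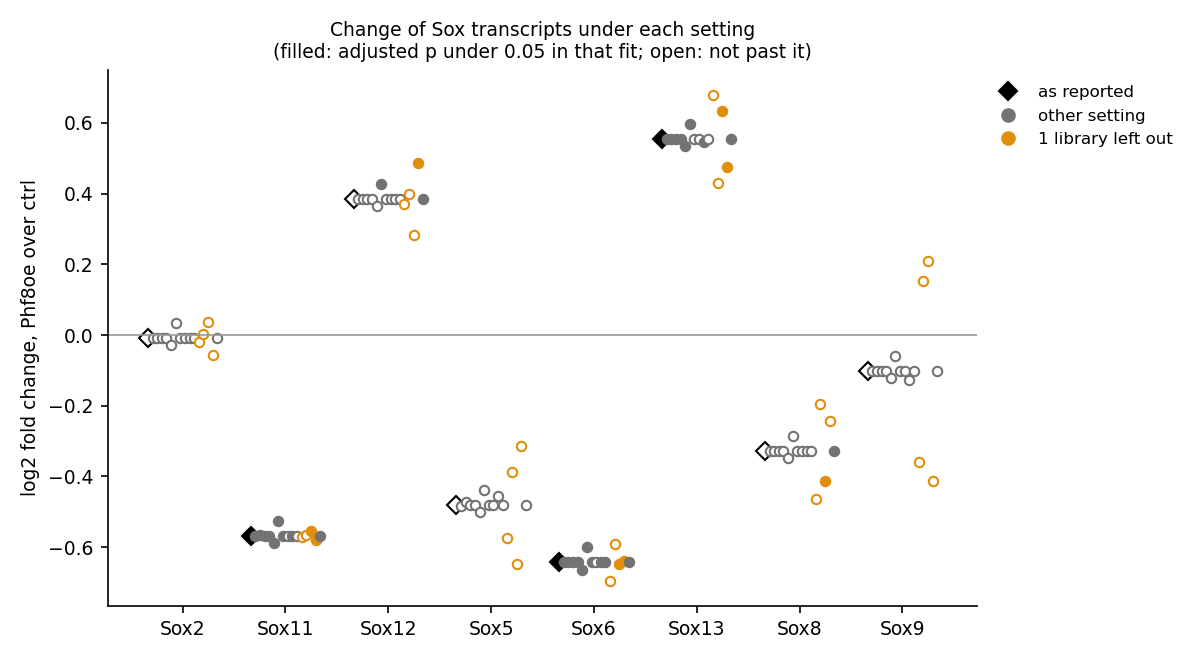
Log2 fold change of Phf8oe over ctrl (y axis) of each Sox gene as reported (diamond), under other settings (grey) and with 1 library left out (orange); filled symbols passed an adjusted p of 0.05 in that fit. Sox6, Sox11, Sox13, Sox12, Sox5 and Sox8 kept their sign in all 15 alternative fits, while Sox2 and Sox9 changed sign in 3 and 2 of them. Several of these fits cannot change a fold change, and groups that do not overlap keep their sign when 1 library is left out.

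Genes whose profile over the 4 libraries was nearest to that of a called Sox gene were sought by the Euclidean distance between centred log2 values, among 10671 genes with a mean of at least 100. Nearest to Sox11 were Med13l, a subunit of the Mediator complex, Braf, a kinase of the MAP kinase pathway, and Cdk5rap2, a centrosome protein, at distances of 0.02, 0.02 and 0.03. All 3 fell, by 1.5-fold, 1.5-fold and 1.47-fold, Braf only just (limma adjusted p = 0.0471; 0.0577 with upper quartile scaling, 0.0599 without robust variance moderation and 0.0508 without Phf8oe replicate 1). Nearest to Sox6 were Mgat5, an N-glycan branching enzyme, Klhl11 and Sh3d19 (0.06, 0.06 and 0.07), which fell by about 1.51-fold each. Nearest to Sox13 were Cfap53, Tnfaip8l1 and Them6 (0.08, 0.1 and 0.11). Tnfaip8l1 rose 1.57-fold and Them6 1.45-fold, and Cfap53, with 201 and 224 normalized counts in Phf8oe and 147 and 130 in ctrl, did not pass (limma adjusted p = 0.0959). Tnfaip8l1 no longer passed without robust variance moderation (0.0663) or without Phf8oe replicate 2 (0.0696). The calls of all 8 of these called genes were lost without ctrl replicate 1 (adjusted p between 0.1855 and 0.336), without ctrl replicate 2 (between 0.0935 and 0.224) and without a variance trend. With 4 libraries in 2 groups, likeness of this kind rests mostly on the size of the group difference.

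The partners of Sox proteins in oligodendroglia are transcription factors and chromatin proteins. Of 31 listed genes 30 were tested, of which 1 rose, 1 fell and 28 did not pass, and their median was -0.05 in log2. The share called is near the 7.64% of all genes. Zfp488, a zinc finger protein that promotes oligodendrocyte differentiation, had 2169 and 1937 normalized counts in Phf8oe, against 1272 and 1431 in ctrl, and rose 1.52-fold (limma adjusted p = 0.0202). Nfatc2, a calcium-regulated factor that in the mouse works with Sox10 during differentiation, had 658 and 641 in Phf8oe, against 901 and 1205 in ctrl, and fell 1.6-fold (limma adjusted p = 0.0333; 0.0598 without robust variance moderation).

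Among 13 genes that depend on SoxE proteins in oligodendroglia, 6 rose, 1 fell and 6 did not pass, with a median log2 fold change of 0.47; of all genes 2.99% rose and 4.65% fell. Mbp, whose protein compacts myelin and whose values are given above, rose 1.81-fold (limma adjusted p = 0.00623). Mog, a protein on the surface of myelin, had 1698 and 2139 normalized counts in Phf8oe, against 1199 and 1178 in ctrl, and rose 1.6-fold (limma adjusted p = 0.0194). Pdgfra, the growth factor receptor of progenitors and in the mouse a gene kept up by Sox5 and Sox6, had 10250 and 9286 in Phf8oe, against 18113 and 17240 in ctrl, and fell 1.81-fold (limma adjusted p = 0.00361). Mbp and Pdgfra are also counted in the marker lists above. The mature markers had a median log2 fold change of 0.45 and the progenitor markers of -0.39.

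Of 14 tested genes that Sox9, Sox5 and Sox6 control together in cartilage, where they are known as the Sox trio, 1 fell and 13 did not pass (median log2 fold change 0.14). Col2a1, the fibrillar collagen of cartilage, had 6440 and 5556 normalized counts in Phf8oe, against 11594 and 18704 in ctrl, and fell 2.46-fold (limma adjusted p = 0.0431). Of 13 neural genes downstream of SoxB or SoxC proteins 1 fell and 12 did not pass (median -0.1). In both lists the share called is near the 7.64% of all genes. Fabp7, a fatty acid binding protein of radial glia, had 7475 and 8651 in Phf8oe, against 12105 and 12826 in ctrl, and fell 1.55-fold (limma adjusted p = 0.0134). The median over all genes tested was 0.003.

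Without ctrl replicate 1 the calls of Zfp488, Nfatc2, Mbp, Mog, Pdgfra and Fabp7 were lost, the adjusted p lying between 0.1145 and 0.266. Without ctrl replicate 2 those of Zfp488, Nfatc2, Mbp, Mog and Fabp7 were lost as well (between 0.0822 and 0.196), while Pdgfra passed (0.0469). That of Col2a1 was lost without either Phf8oe library, at 0.203 and 0.242.

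**Figure D5:**
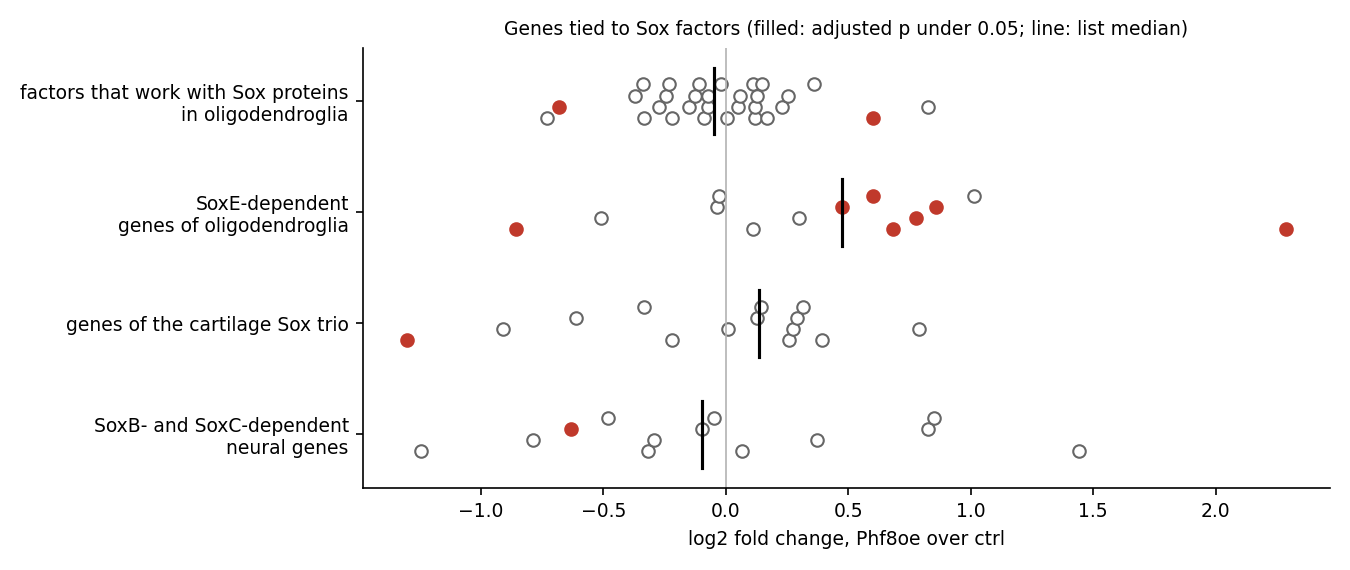
Log2 fold change of Phf8oe over ctrl (x axis) of the tested genes of 4 lists tied to Sox factors; each point is a gene, filled where its adjusted p was under 0.05, and the vertical line is the list's median. The SoxE-dependent genes have a median of 0.47, with Pdgfra farthest to the left at -0.86.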

How the data were processed

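The RNA-seq libraries (paired reads of 150 bases, per the labels) came as 1 table and 4 sample files with the same values. The authors used STAR 2.5.2b, Trimmomatic 0.36, DESeq2 and bcl2fastq 2.20 with rn6 and Rnor_6.0, per the submitters' processing notes; no source used here names the gene counter, annotation, strand setting or gene filter. The deposited signal is a count scaled per library and rounded, although the labels call it raw: in Phf8oe replicate 2, 85 of 85 whole numbers between those of scaled reads were missing, and median ratios to the geometric mean were 1.001 to 1.003. A count model needs unscaled counts, so log2(value + 1) was tested with limma 3.58.1 in R 4.3.3, with a trended, robust variance and group as the only term (residual degrees of freedom 2, median prior degrees of freedom 6.99), on genes with at least 10 in at least 2 libraries. Tests were two-sided, with Benjamini-Hochberg adjustment over all genes at 0.05. Chi-square per degree of freedom between replicates was 34.2 in Phf8oe and 20.9 in ctrl, so the 2 libraries of a group are not repeat runs of 1 library. These values do not tell whether the libraries came from separate cultures or transductions.

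The members and lists were chosen with earlier results of these data known. Named were all members, Sox10, Phf8, from each list up to 4 called genes by lowest p (where none was called, the 2 of highest mean), and the 3 nearest profiles; 1 gene that this rule names is not reported here. Olig2, the astrocyte markers and the neighbours were named after their values were seen. The scripts (Python 3.11.15, pandas 2.3.3) were tested on simulated data. At the spread set there, limma called 22.1% of 1.5-fold and 87.1% of 2-fold changes, and 5.66% of calls were false. Failing the threshold thus does not by itself exclude a change of 1.5-fold or more in a Sox gene. The limma interval of the fold of Phf8oe over ctrl reached 0.519 for Sox5, 0.611 for Sox9, 0.66 for Sox8 and 1.54 for Sox12. That of Sox2 ran only from 0.845 to 1.17. Alternatives changed the pseudocount, filter, scaling, variance model, replicate block and libraries.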

Additional observations from a re-analysis of the deposited data

How the results depend on the processing

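Sox6, Sox11, Sox13, Sox12, Sox5 and Sox8 kept their direction in each of the 15 alternatives, but much of this was fixed in advance. The filter, the variance trend, the robust moderation and the replicate blocks cannot change a log2 fold change here. That of Sox6 was -0.6431 under each of them. With 1 library left out, groups that do not overlap keep their sign. The calls of Sox6, Sox11 and Sox13 held in 12, 11 and 10 of the 15 alternatives. The 1098 called genes became 0 without a variance trend (3133 at an unadjusted p under 0.05, 1198 by limma-voom), where no Sox gene was called either (0). With 1 library left out the counts ranged from 14 to 2103 genes and from 0 to 4 Sox genes; the fits without a Phf8oe library gave 1754 and 2103, those without a ctrl library 14 and 160. Whether replicate numbers pair the libraries is not stated, and same-numbered deviations correlated at -0.126, so the block is an alternative only: with the replicate block 373 genes and 1 Sox gene (Sox6) were called and Phf8 passed (adjusted p 0.0313), and with the crossed pairing, chosen after seeing the data, 2354 and 5. Near-zero values changed sign: Sox2 to 0.0335 with upper quartile scaling, and, with 1 library left out, Sox2 from -0.0552 to 0.0372, Sox9 from -0.41 to 0.21 and Sox21 from -0.49 to 0.0271. The ratio differences with 1 library left out ran from -0.0044 to 0.32 for Sox5 over Sox6, from -0.62 to 0.17 for Sox8 over Sox9 and from -0.56 to 0.14 for Sox9 over Sox10. The cause was not tested. The reads behind Sox5 and Sox9 limit what can be seen in them.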
